A study of Mus musculus with 3 samples.

Results

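The microRNAs (miRNAs) of the miR-199/miR-214 and miR-143/miR-145 groups, which are known from stromal cells such as fibroblasts and smooth muscle, were examined in exosomes of mouse macrophages. They were chosen by name, as 8 mature miRNAs of 1915 listed in each library: mmu-miR-199a-3p, mmu-miR-199b-3p, mmu-miR-199a-5p, mmu-miR-199b-5p, mmu-miR-214-3p, mmu-miR-214-5p, mmu-miR-143-3p and mmu-miR-145a-5p. Because the counts of miR-199a-3p and miR-199b-3p are identical and were used once, 7 distinct members remained. The exosomes, small vesicles shed by cells, came from bone-marrow-derived macrophages of adult wild-type C57BL/6 mice. Marrow cells were flushed from the leg bones, kept for 24 h with M-CSF, which turns marrow progenitors into macrophages, and moved to medium with exosome-free serum, from which vesicles were pelleted by ultracentrifugation after 72 h. There was 1 group with 3 libraries, called libraries 1, 2 and 3, and no library of other conditions or of the parent cells. The labels give no sort of the marrow cells, nor the culture or animal behind each library, so every SD and every p-value of the arm test rests on differences between 3 libraries that may be technical.

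A miRNA is cut from a hairpin whose 5′ and 3′ arms (5p and 3p) each can give a mature strand, and the strand that stays bound to Argonaute silences messenger RNAs that match its seed, bases 2 to 8. The miR-199 and miR-214 genes lie on the strand opposite to dynamin genes, and 1 copy of miR-199a and miR-214 are cut from the same noncoding transcript, Dnm3os, which is active in mesenchyme and fibroblasts. The genes of miR-143 and miR-145 are neighbours that are transcribed together, chiefly in smooth muscle and fibroblasts, where they support the contractile state.

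The mature sequences, from RefSeq on build GRCm38.p6, are shown because they decide which counts can be told apart. Sequences of 5 of the 8 names were used here. They are written 5′ to 3′ with the seed in capitals:
miR-199a-3p: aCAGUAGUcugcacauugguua
miR-199b-3p: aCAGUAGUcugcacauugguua
miR-199a-5p: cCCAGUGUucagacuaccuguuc
miR-214-3p: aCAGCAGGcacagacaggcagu
miR-214-5p: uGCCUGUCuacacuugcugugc
The 5 sequences held 4 distinct seeds. Among these 5, the only shared seed was that of miR-199a-3p and miR-199b-3p, whose whole sequences are the same. Outside the group, miR-761 has the seed of miR-214-3p, and it had 0 counts in every library. No mature sequence is printed for miR-199b-5p, miR-143-3p and miR-145a-5p.

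The hairpins show why the miR-199 counts cannot be assigned to a gene. In the lines that follow, the mature arms whose sequences were used here are in capitals. No sequence of miR-199b-5p was used, so its arm in Mir199b stays in lower case:
Mir199a-2: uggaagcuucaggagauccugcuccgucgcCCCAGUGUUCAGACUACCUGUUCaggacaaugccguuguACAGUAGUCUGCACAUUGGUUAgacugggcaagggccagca
Mir199a-1: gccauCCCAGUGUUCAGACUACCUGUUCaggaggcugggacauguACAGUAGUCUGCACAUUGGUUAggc
Mir199b: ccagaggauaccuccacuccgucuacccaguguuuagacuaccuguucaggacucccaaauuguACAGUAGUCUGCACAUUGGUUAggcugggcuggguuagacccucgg
Mir214: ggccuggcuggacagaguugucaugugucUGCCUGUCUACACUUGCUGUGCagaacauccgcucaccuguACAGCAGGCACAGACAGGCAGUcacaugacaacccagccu
All 3 miR-199 hairpins hold the same 3p strand, and Mir199a-1 and Mir199a-2 hold the same 5p strand. On its 5p side, Mir199b holds a stretch nearly identical to that strand, with the same seed. Mir199a-2 lies at chr1:162217814-162217923 and Mir214 at chr1:162223368-162223477, both on the plus strand, in exons of Dnm3os and within an intron of Dnm3 on the other strand. They are 5444 bases apart. Mir199a-1 lies at chr9:21496495-21496564 on the minus strand, in an intron of Dnm2 on the other strand, and Mir199b at chr2:32318460-32318569 on the plus strand, in an intron of Dnm1 on the other strand.

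The libraries held 3008995, 2489984 and 3208617 miRNA counts, and levels are given as counts per 1000000 miRNA counts (CPM). A count of 0 allows up to 3 counts, or 0.997, 1.20 and 0.935 CPM in libraries 1, 2 and 3. All intervals and floors cover counting error only. Library 1 stood apart from the other libraries. TMM factors, an alternative scaling that centres the bulk of miRNAs, shifted library 1 by -0.61 against library 2 and by -0.86 against library 3 (log2), so the tests of members among libraries are given under both scalings, and other values are under library totals unless stated.

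Together the members were a minute part of the exosome profile. The 7 distinct members took 0.0264%, 0.0156% and 0.0155% of miRNA counts in libraries 1, 2 and 3. The 5 of the miR-199 and miR-214 group summed to 173 ± 60.2 CPM and the 2 of the miR-143 and miR-145 group to 18.4 ± 3.84 CPM (SD, n = 3 each). The first sum was thus 11.4, 10.1 and 6.75 times the other in libraries 1, 2 and 3. In each group 1 miRNA made up nearly everything, with miR-199a-3p at 92.2%, 88.4% and 85.0% of the counts of its group and miR-143-3p at 98.4%, 100% and 98.4% of those of the other group. In these bulk pellets, few vesicles rich in these miRNAs and little of them in each vesicle cannot be told apart.

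Markers of blood cells and of other tissues were set beside the labelled macrophage source. All 6 blood-cell markers, among them the haematopoietic miR-142a-3p and the inflammation-linked miR-21a-5p and miR-155-5p, had at least 10 counts in every library, and together they took 7.12%, 34.5% and 30.01% of counts. Nearly all of this was miR-21a-5p, at 37316, 305278 and 261488 CPM, and miR-146a-5p, at 33401, 35012 and 36543 CPM. The sum therefore rests on these 2 miRNAs and does not by itself tell blood cells from stromal cells. MiR-142a-3p was at 42.9, 1364 and 819 CPM and miR-155-5p at 74.8, 2388 and 829 CPM in libraries 1, 2 and 3, so that in library 1 both lay below miR-199a-3p. Only 3 of the 6 lay above miR-199a-3p in every library, namely miR-21a-5p, miR-146a-5p and miR-142a-5p, the last at 292, 818 and 390 CPM. MiR-223-3p, at 35.6, 52.6 and 33.0 CPM, lay below miR-199a-3p in every library. The endothelial pair miR-126a-3p and miR-126a-5p summed to 25.2 to 44.6 CPM, the epithelial list of 5 to 81.8 to 445 CPM, and the skeletal muscle list of 3 to between 0 and 2.66 CPM. The hepatocyte miRNA miR-122-5p was at 322, 548 and 1500 CPM. The red cell and platelet list of 3, led by miR-451a and miR-486a-5p, summed to 89.7, 27.7 and 15.6 CPM.

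**Figure D1:**
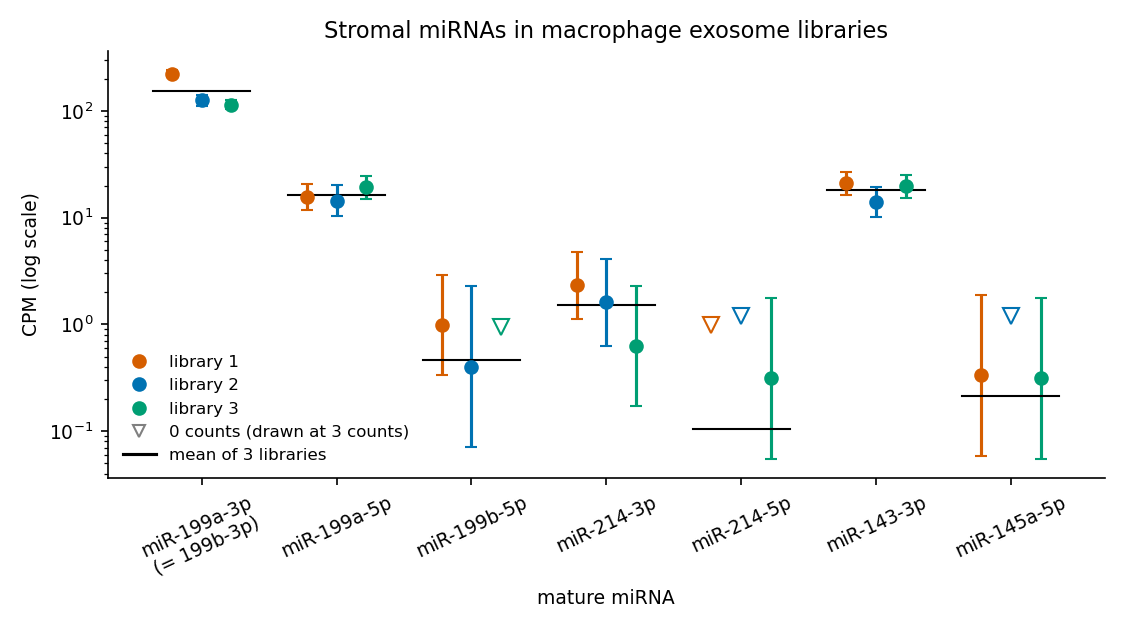
Level of each distinct member in CPM (log axis) by library. Points are libraries with 95% Wilson intervals, open triangles mark 0 counts and are drawn at the level of 3 counts, and black lines are means of the 3 libraries. Only miR-199a-3p lies above 100 CPM, miR-199a-5p and miR-143-3p lie between 14.1 and 20.9 CPM, and the other 4 members have means of 1.52 CPM or less.

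The strand shared by miR-199a-3p and miR-199b-3p, which represses growth-promoting messages such as those of Mtor and Met, was the most abundant member. It had 672, 312 and 367 counts in libraries 1, 2 and 3, or 223 CPM (95% Wilson interval 207 to 241), 125.3 CPM (112 to 140.0) and 114 CPM (103 to 127). Its mean was 154 CPM with a coefficient of variation of 38.9% (n = 3), and it ranked 112, 115 and 117 among the 735, 651 and 659 miRNAs detected in libraries 1, 2 and 3. Library 1 was the highest, and libraries 2 and 3 had overlapping intervals. Although its level in library 1 was 1.95 times that in library 3, its rank moved little. The next miRNAs by mean level were miR-27a-5p above it, at 158 ± 187 CPM, and miR-374b-5p below it, at 152 ± 38.2 CPM (SD, n = 3 each), and neither differed from it by more than the spread between libraries.

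The opposite strand, miR-199a-5p, is known to respond to hypoxia and to act in TGF-β-driven fibroblasts through caveolin-1. It had 47, 36 and 62 counts, or 15.6 CPM (11.7 to 20.8), 14.5 CPM (10.4 to 20.01) and 19.3 CPM (15.1 to 24.8). The 3 libraries averaged 16.5 ± 2.54 CPM (SD, n = 3). All 3 intervals overlapped. Its counterpart miR-199b-5p had 3, 1 and 0 counts, at or below the floor in every library. Of the counts of the 2 strands together, miR-199a-5p took 94.0%, 97.3% and 100% in libraries 1, 2 and 3, with exact 95% (Clopper-Pearson) intervals of 83.5 to 98.7, 85.8 to 99.9 and 94.2 to 100. The counts assigned to miR-199b-5p, the one strand among these that only Mir199b encodes, were therefore nearly absent at this depth. However, the Mir199b hairpin printed above holds a stretch that differs from miR-199a-5p at 1 base, outside the seed. How reads of such close sequences were assigned is unknown, so the split between the 2 names may depend on it. The intervals do not cover this.

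MiR-214, known for repressing Atf4 in osteoblasts, was close to the floor although it shares the Dnm3os transcript with Mir199a-2. MiR-214-3p had 7, 4 and 2 counts, or 2.33, 1.61 and 0.623 CPM. The average was 1.52 ± 0.855 CPM (SD, n = 3). MiR-214-5p had 0, 0 and 1 counts. Of the summed counts of miR-214-3p and miR-199a-3p, miR-214-3p made up 1.03% (exact 95% interval 0.415 to 2.11), 1.27% (0.346 to 3.21) and 0.542% (0.0657 to 1.94) in libraries 1, 2 and 3. The miR-199a-3p counts can come from any of 3 hairpins and those of miR-214-3p from 1, so this is a ratio of mature strands and not of the products of 1 transcript. Set against miR-199a-5p, whose hairpins are 2, the counts were 7, 4 and 2 for miR-214-3p, against 47, 36 and 62 for miR-199a-5p.

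Of the smooth muscle pair, miR-143-3p was readily detected and miR-145a-5p hardly at all. In the GENCODE annotation of GRCm38, Mir143 and Mir145a lie 1301 bases apart on the minus strand of chromosome 18. MiR-143-3p, which restrains growth signalling in smooth muscle, had 63, 35 and 63 counts, or 20.9 CPM (16.4 to 26.8), 14.1 CPM (10.1 to 19.5) and 19.6 CPM (15.3 to 25.1). The average was 18.2 ± 3.66 CPM (SD, n = 3). Its 3 intervals overlapped. MiR-145a-5p, which represses Klf4 and Klf5 and is a leading miRNA of differentiated vascular smooth muscle, had 1, 0 and 1 counts. Of the summed counts of the pair, miR-145a-5p made up 1.56% (exact 95% interval 0.0396 to 8.40) in libraries 1 and 3 and 0% (0 to 10.0) in library 2. MiR-145b, a further mouse miRNA of that name, had 0 counts.

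The order by mean was miR-199a-3p, miR-143-3p, miR-199a-5p, miR-214-3p, miR-199b-5p, miR-145a-5p and miR-214-5p. MiR-143-3p and miR-199a-5p were not told apart, since miR-143-3p averaged 18.2 CPM and miR-199a-5p 16.5 CPM with SDs larger than the gap and the order turned in library 2. The last 4 means lay at 0.104 to 1.52 CPM and their ranges overlapped from one to the next. Over the 7 members the median of the mean levels was 1.52 CPM, against 1.46 CPM over the 886 miRNAs detected in any library. An exact sign-flip permutation test of the 3 shares given above (miR-199a-5p with miR-199b-5p, miR-214-3p with miR-199a-3p, miR-145a-5p with miR-143-3p) gave two-sided p = 0.25 for each pair, also after adjustment over the 3 pairs, which is the smallest p that 3 libraries allow. The direction was the same in 3 of 3 libraries for each pair.

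Arm use was compared for every hairpin with both arms in the tables, with edgeR's quasi-likelihood test and library as a term. Among 157 hairpins with at least 60 counts, the 3p arm was higher in 61, or 38.9%, and the 5p arm in 65, or 41.4%, at an adjusted p below 0.05, which is 80.3% in either direction. Of the 5 member hairpins, 3 had enough counts and all 3 were called with the 3p arm higher. However, miR-199a and miR-199b carry the same 3p counts and are not independent. The miR-199b call sets 3p reads that all 3 miR-199 hairpins can give against a 5p strand of Mir199b alone. It therefore does not give the arm use of Mir199b. The log2 ratio of 3p to 5p was 3.17 for miR-199a (edgeR adjusted p = 0.00178). Without library 2 the ratio of miR-199a was 3.20 and its adjusted p was 0.0855, which no longer passed the threshold of 0.05.

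For miR-143 the 3p arm is the known guide, and it had 63, 35 and 63 counts, against 0 counts of miR-143-5p in every library. Set against 3 counts in each library, miR-143-3p was at least 21.0-fold, 11.7-fold and 21.0-fold higher than miR-143-5p in libraries 1, 2 and 3 (edgeR adjusted p = 3.9e-06). For the miR-199b hairpin the 3p strand made up 99.6%, 99.7% and 100% of both arms (edgeR adjusted p = 1.1e-09), counting all shared 3p reads. Since the miR-199a hairpins can give those reads too, the arm use of Mir199b itself is not known from these counts.

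MiR-145a had more counts of its 3p arm than of its 5p arm, although the 5p arm is the known guide. MiR-145a-3p had 11, 4 and 2 counts in libraries 1, 2 and 3, against 1, 0 and 1 counts of miR-145a-5p. Pooled over libraries this was 17 counts of the 3p arm and 2 of the 5p arm, a 3p share of 89.5% (exact 95% interval 66.9 to 98.7). MiR-214-3p and miR-214-5p likewise had 13 counts and 1 count in all, a 3p share of 92.9% (66.1 to 99.8), with miR-214-3p being the known guide. Neither hairpin had the 60 counts the arm test asked for. In the same test without a filter, over 473 hairpins, the log2 ratios of 3p to 5p were 2.77 for miR-145a and 3.21 for miR-214, with edgeR adjusted p of 0.217 and 0.204.

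**Figure D2:**
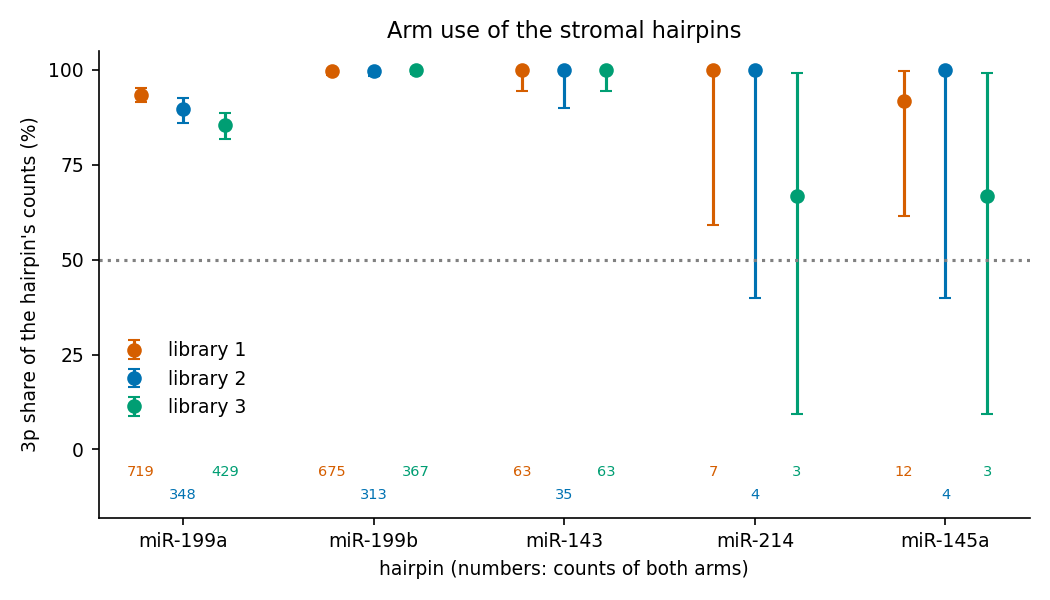
Share of the 3p arm in the counts of each member hairpin (percent), by library, with exact 95% intervals, and the counts of both arms printed beneath. The miR-199a share is 93.5%, 89.7% and 85.5% in libraries 1, 2 and 3, highest in library 1 and lowest in library 3, while the miR-214 and miR-145a shares rest on 3 to 12 counts and have wide intervals. The miR-199b share counts all shared 3p reads and does not give the arm use of Mir199b.

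The balance of the 2 miR-199a strands differed among libraries by more than counting error, and this ratio within a library does not depend on any scaling. The 3p strand made up 93.5% (exact 95% interval 91.4 to 95.2), 89.7% (86.0 to 92.6) and 85.5% (81.9 to 88.7) of both strands in libraries 1, 2 and 3, a mean of 89.6% ± 3.96 (SD, n = 3). In other words there were 14.3, 8.67 and 5.92 counts of miR-199a-3p for each count of miR-199a-5p. With miR-199b-5p added to the 5p side, so that all 3 hairpins are on both sides, the ratios were 13.4, 8.43 and 5.92. Libraries 1 and 3 had intervals that did not overlap.

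A chi-square test of the 2 arm counts by 3 libraries, chosen after seeing the data, gave an adjusted p of 9.0e-05 for miR-199a over 80 hairpins with at least 30 counts in each arm. Like the intervals, the chi-square tests here set libraries against counting error alone and take reads as independent, which PCR products are not, so their p-values do not allow for spread between libraries. Such a difference was the rule, since 92.5% of these hairpins passed the same threshold. The miR-199a share ranged over 7.92 percentage points, against a median of 12.5 over the 80 hairpins. Without library 1 the adjusted p for miR-199a was 0.121, and 45 of 67 hairpins passed in place of 74 of 80.

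The same libraries were then compared miRNA by miRNA, with a chi-square test of the 3 counts against the library totals. In all 353 miRNAs had 30 or more counts over the libraries, and 318 of them differed by more than counting error (90.1%). Of the 7 distinct members 3 had that many counts, and 1 of the 3 passed, so 4 members at or near the floor were not tested. MiR-199a-3p passed (adjusted p = 1.7e-30), and miR-199a-5p (adjusted p = 0.330) and miR-143-3p (adjusted p = 0.157) did not. The highest level was 1.95 times the lowest for miR-199a-3p, 1.34 times for miR-199a-5p and 1.49 times for miR-143-3p, against a median of 3.84 times over the 349 tested miRNAs with a count in every library.

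Low counts limit this test, so miR-199a-5p and miR-143-3p, whose counts over the 3 libraries lie between 100 and 200, were set beside miRNAs of like depth. Among the 55 other miRNAs with 100 to 200 summed counts, 48 passed (87.3%), and the median ratio of highest to lowest was 3.86. Only 4 of the 55 had a smaller ratio than miR-199a-5p, and 5 a smaller one than miR-143-3p. Both members thus lay at the steady end of miRNAs of their depth when counts were scaled to library totals.

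**Figure D3:**
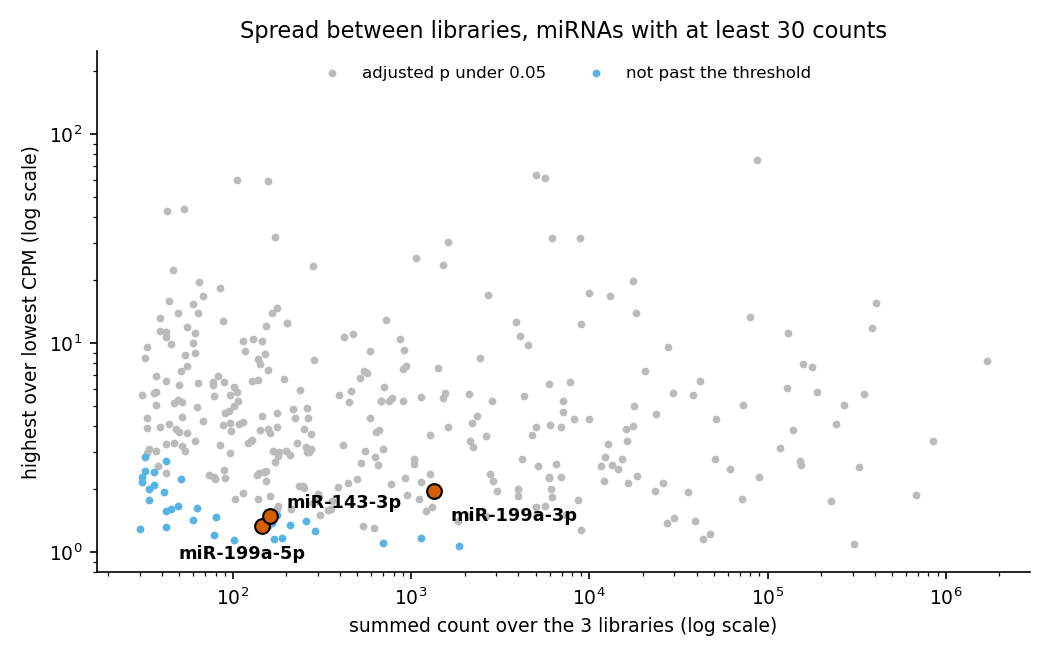
Ratio of the highest to the lowest CPM among the 3 libraries (log axis) against the summed count (log axis) for miRNAs with at least 30 counts and a count in every library, scaled to library totals. Grey points passed the chi-square test at an adjusted p below 0.05 and blue points did not. The members, in orange, lie low in the cloud, at 1.34, 1.49 and 1.95 times.

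These calls turned with the scaling. With TMM factors miR-199a-3p stood at 159, 136 and 148 scaled counts per 1000000 in libraries 1, 2 and 3 and no longer passed (adjusted p = 0.0862). MiR-199a-5p then stood at 11.1, 15.7 and 24.98 and passed (adjusted p = 0.000116), and so did miR-143-3p at 14.9, 15.3 and 25.4 (adjusted p = 0.00544). DESeq2 size factors gave the same 3 calls, with adjusted p of 0.186, 9.5e-05 and 0.00512. Passing stayed the rule over all miRNAs, with 316 of 353 under TMM factors and 314 of 353 under DESeq2 size factors. Without library 1 and with library totals, none of the 3 passed in the chi-square test, with adjusted p of 0.296 for miR-199a-3p, 0.223 for miR-199a-5p and 0.157 for miR-143-3p and unadjusted p of 0.236, 0.165 and 0.111. Over all miRNAs 177 of 288 passed in that setting. Which strand was steady and which moved was therefore not settled by these tables, whereas the ratio of the miR-199a strands is the same under each scaling.

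**Figure D4:**
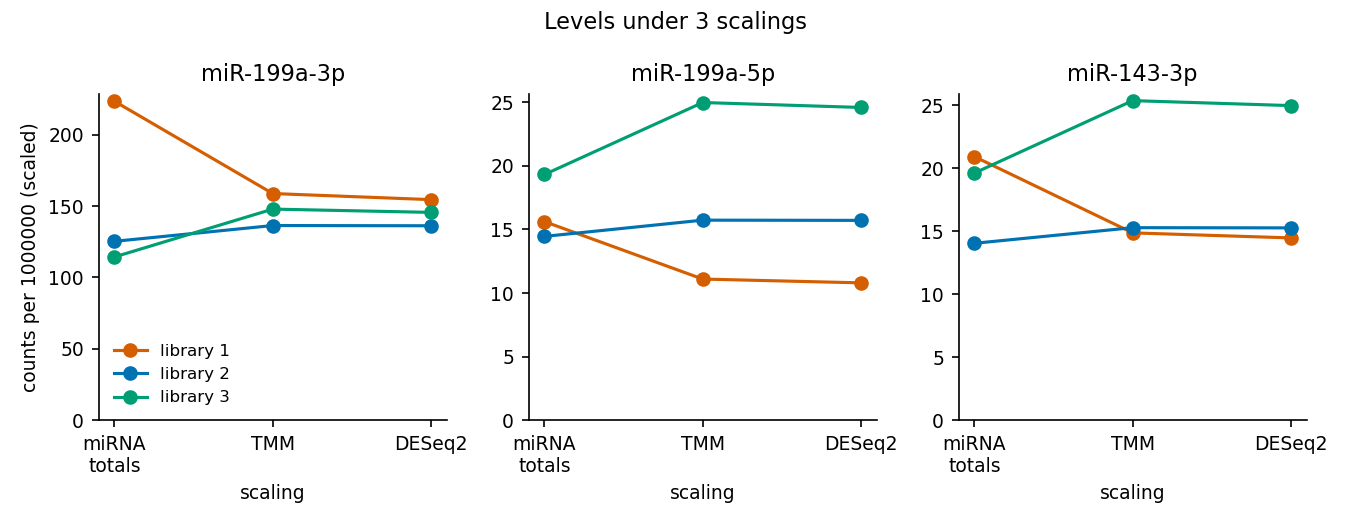
Level per 1000000 of miR-199a-3p, miR-199a-5p and miR-143-3p in each library under library totals, TMM factors and DESeq2 size factors. The gap of library 1 in miR-199a-3p (223 against 125.3 and 114) narrows under TMM (159, 136 and 148). For miR-143-3p library 2 is the lowest under library totals (20.9, 14.1 and 19.6), and under TMM library 3 stands above the others (14.9, 15.3 and 25.4).

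Under library totals the red cell and platelet list (89.7, 27.7 and 15.6 CPM) was highest in library 1 and lowest in library 3, the order that miR-199a-3p and miR-214-3p also had. With TMM factors the list kept that order (63.8, 30.2 and 20.1 scaled counts per 1000000). Neither miR-199a-3p (159, 136 and 148) nor miR-214-3p (1.65, 1.75 and 0.806) kept it. The miR-214-3p order rests on 7, 4 and 2 counts, whose Wilson intervals overlapped. For miR-199a-3p the Wilson intervals of libraries 2 and 3 overlapped, so only library 1 stood out. All 3 markers of that list were lowest in library 3, with miR-451a at 33.9, 17.3 and 11.2 CPM, miR-486a-5p at 54.2, 9.64 and 4.36 CPM and miR-144-3p at 5, 2 and 0 counts. Their part in the miR-199a-3p values was not tested. The sum of the other mesenchymal miRNAs described next also had that order under library totals (4077, 2785 and 1478 CPM), but not with TMM factors (2898, 3031 and 1911). The other cell-type lists did not have it under library totals. With 3 libraries, unrelated miRNAs can share an order.

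A list of 13 other miRNAs linked to mesenchymal and muscle cells, all in the tables, gave the setting for these levels. It held 6 miRNAs with at least 10 counts in every library, and all 6 differed among libraries in the chi-square test, against 90.1% of all tested. The highest were miR-125b-5p at 1572 ± 679 CPM, miR-100-5p at 590 ± 307 CPM and miR-152-3p at 498 ± 388 CPM (SD, n = 3 each), none of which is restricted to stromal cells. The members of the list did not move together. Under library totals these 3 were highest in library 1 and lowest in library 3, with miR-152-3p at 925, 402 and 166 CPM, as was miR-127-3p at 49.2, 15.3 and 11.2 CPM. MiR-10b-5p was highest in library 3 (51.2, 45.8 and 119.99 CPM) and miR-322-5p in library 2 (16.9, 33.3 and 10.9 CPM). With TMM factors miR-125b-5p was highest in library 2, at 1488, 1979 and 1040 scaled counts per 1000000, while miR-100-5p, miR-152-3p and miR-127-3p kept their order. MiR-125b-5p, miR-100-5p and miR-152-3p were also the only list members above miR-199a-3p in every library. The muscle miRNAs miR-1a-3p, miR-133a-3p and miR-206-3p had at most 3, 7 and 2 counts in any library, and miR-133b-3p and miR-145b had none. The median of the mean levels of the list was 0.983 CPM, against 1.46 CPM over all detected miRNAs.

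The miRNAs whose levels followed the members most closely over the 3 libraries were found by the distance between centred log2(CPM + 1) values among 265 miRNAs that averaged 10 CPM or more. For miR-199a-3p they were miR-29a-3p (distance 0.051), miR-148b-3p (0.068) and miR-212-3p (0.075), with miR-29a-3p at 3923, 2108 and 2002 CPM. For miR-143-3p they were miR-3970 (0.043), miR-99b-3p (0.085) and miR-744-5p (0.15), with miR-3970 at 23.6, 15.7 and 21.2 CPM. With 3 libraries, many miRNAs can come close by this measure.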

How the data were processed

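Small RNA was sequenced from exosome pellets in 3 libraries of 1 group, grouped by their titles. Per the labels' protocols, TRIzol-extracted RNA went into NEBNext small RNA libraries with adapter ligation, PCR and gel selection, read from 1 end over 50 bases. Ligation and PCR can favour some sequences, and molecular identifiers are not mentioned. Per the submitters' processing notes, bcl2fastq, BWA and mm10 are named; trimming, mismatch limits, the miRNA release and the handling of reads that match several miRNAs are not given in the sources used here. The tables the authors deposited hold a raw count for each mature miRNA, which all tests use. The authors also deposited a normalized value, RPM, per 1000000 of a denominator of 14047692, 13995845 and 14002577, of which miRNA counts are 21.4%, 17.8% and 22.9%. Its other content is unstated, so counts were scaled to miRNA totals (CPM).

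Arms were matched by name (749 hairpins) and tested with edgeR 4.0.16 (quasi-likelihood, terms library and arm, summed count at least 60). Chi-square tests compared counts among libraries with counting error (summed count at least 30). P-values were Benjamini-Hochberg adjusted over all features tested, with a threshold of 0.05. Intervals are Wilson (levels) or Clopper-Pearson (ratios), from statsmodels 0.14.6 and SciPy 1.17.1. DESeq2 1.42.0, TMM, RPM, other filters and leaving out each library were alternatives. Sequences are from RefSeq and positions from GENCODE M21, both on GRCm38, the build the notes name as mm10. Members and lists were chosen with earlier results of these data known. Named miRNAs were all members, their opposite arms, miRNAs with a member's seed, the 3 highest of the mesenchymal list, the nearest by level or pattern, and the cell-type markers. MiR-199b-5p, miR-143 and miR-145 sequences were not used here.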

Additional observations from a re-analysis of the deposited data

How the results depend on the processing

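Counts of members below 10 per library limit everything said of miR-214, miR-145a and miR-199b-5p, and with 3 libraries of 1 group the spread may be technical. The arm test called 126 of 157 hairpins, and 99 to 122 with 1 library left out. The fit with no replicate block, that is without the library term that pairs the arms of a library, also called 126, with a log2 ratio of 3.22 for miR-199a in place of 3.17, and changed no call of the member hairpins. The miR-199a ratio was 2.83 to 3.47 with 1 library left out, and its call was lost without library 2. The cause was not tested. The chi-square test called 318 of 353 miRNAs. It called 177 of 288 without library 1, 284 of 327 without library 2 and 279 of 319 without library 3. Fewer miRNAs reached the count minimum in each case, but without library 1 the share called also fell clearly. The arm-share test called 74, and 45 to 59 with 1 library left out, with an adjusted p for miR-199a of 1.7e-05 to 0.121. On the authors' RPM scale, whose denominator is larger, the means were 32.1 for miR-199a-3p, 3.45 for miR-199a-5p, 0.309 for miR-214-3p, 3.83 for miR-143-3p, 35.99 for the sum of the miR-199 and miR-214 members and 3.88 for that of miR-143-3p and miR-145a-5p. Counting both names of the shared 3p strand gave 327 CPM in place of 173 for the sum of the miR-199 and miR-214 members. With no filter, 370 miRNAs, 168 hairpins by arm and 104 by arm share were called. DESeq2's test called 129 hairpins by arm. No result reversed. Besides those named here and the calls of miR-199a-3p, miR-199a-5p and miR-143-3p under TMM, DESeq2 and without library 1, every alternative kept its call, stayed within 1 SD or, for counts of calls, stayed within 1.5 times.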
